A study of Mus musculus with 10 samples.

Results

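The granzymes, the other genes of the cytotoxic granule and their protease inhibitors were followed across CD4+ T cells of DBA/1 mice, an inbred strain. The set held 10 genes of the 17097 with a probe set on the array, chosen by symbol: the granzymes Gzma, Gzmb and Gzmk, the granule proteins Prf1 and Nkg7, the serpins Serpinb9, Serpinb6b and Serpinb1a, and the cathepsin inhibitors Ctla2a and Ctla2b. They were read by 14 of the 45141 probe sets. A gene with 2 probe sets (4 of the 10) was represented by the one with the higher mean over the 10 arrays, and the other is given beside it.

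All cells were CD4+ T cells purified from spleen and sorted after staining for CD4, CD49b and CD25, with cells of several mice pooled for each sort. CD49b+ cells (3 arrays) carry the integrin alpha 2 chain encoded by Itga2, and CD25+ cells (3 arrays) carry the alpha chain of the interleukin 2 receptor, the product of Il2ra. Both subsets came from mice given 500000 dendritic cells in the immature state, in which they take up antigen but prime T cells poorly, at each of 3 intraperitoneal injections 7, 5 and 3 days before the spleen was taken. Cells labelled CD4+ alone came from mice injected in the same way (2 arrays) and from naive mice that had no injection (2 arrays). No group of CD49b+ or CD25+ cells from naive mice was used here, so that in these subsets the effect of the injections cannot be told apart from that of the sort. The series title names the CD49b+ cells as regulatory cells set against conventional CD25+ regulatory cells in arthritis, and the comparisons ask how their transcripts differ from those of CD4+ cells and from each other. Nothing in the labels tells whether each replicate had its own pool of mice, so that p-values measure only how these samples vary, which may be technical.

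Cytotoxic granules are secretory lysosomes. Granzymes are serine proteases stored in them with the pore-forming protein perforin, which lets the proteases reach the cytosol of a target cell. Cells that make granzymes also make cytosolic serpins, which trap a protease that leaks from its granule in an irreversible complex, and mouse regulatory T cells as well as killer cells are known to use granzyme B.

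The sort was checked on its marker genes. Il2ra lay at 8.51 to 9.09 on the log2 scale on the CD25+ arrays and at 6.23 to 6.37 on the CD49b+ arrays, against 4.16 to 4.18 in CD4+ cells of injected mice. Itga2 read 5.59 to 5.97 on the CD49b+ arrays and 5.43 to 5.53 on the CD25+ arrays, against 5.80 to 5.85 in CD4+ cells of injected mice. It was higher in CD49b+ than in CD25+ cells by 0.31 ± 0.10 (limma, adjusted p = 0.0349), but its difference from CD4+ cells of injected mice was −0.05 ± 0.11 (adjusted p = 0.717). Cd4 and Cd3e lay above the array median on all 10 arrays. Foxp3, the master regulator of regulatory T cells, was read beside these genes. It lay at 8.06 to 8.36 on the CD25+ arrays and at 6.26 to 6.58 on the CD49b+ arrays, against 4.57 and 4.70 in CD4+ cells of injected mice. The array median was 4.61 to 4.62 on the CD49b+ arrays and 4.64 to 4.65 on the CD25+ arrays, against 4.80 to 4.81 and 4.79 to 4.80 on the CD4+ arrays of injected and of naive mice. The median of 23 probe sets for nonspecific signal moved with it, at 3.24 to 3.31 on CD49b+ and 3.20 to 3.23 on CD25+ arrays, against 3.37 to 3.41 and 3.37 to 3.39. With median centring or with quantile normalization of the arrays every call of a member was kept, in each of the 4 comparisons. Arrays of 1 group correlated at r of 0.988 to 0.997 across the genes tested, and none of the 10 held the same values as another. The 2 subset arrays numbered 3 stood apart in the added poly-A transcripts, at a mean of 7.69 to 7.86 against 5.13 to 6.36 on the other 8 arrays, and results were also computed without both. The 3′ minus the 5′ control probe set of Gapdh came to 0.23 to 0.69 on CD49b+ and 0.37 to 0.60 on CD25+ arrays. On the CD4+ arrays it was 0.13 to 0.26 in injected and −0.01 to 0.06 in naive mice. The part of this 3′ excess in the differences from CD4+ cells was not tested.

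The upstream sequences of 7 members are shown first, because these genes gave the contrasts described below: Gzma, Gzmb, Nkg7, Ctla2a and Ctla2b, which were higher in CD49b+ cells, Prf1, which was lower, and Gzmk, the neighbour of Gzma, which was dim on every array. Each line gives the 250 bases before the RefSeq transcription start in build GRCm38.p6, from 5′ to 3′ on the strand of the gene, and capitals mark the motif letters that were found.
Gzma: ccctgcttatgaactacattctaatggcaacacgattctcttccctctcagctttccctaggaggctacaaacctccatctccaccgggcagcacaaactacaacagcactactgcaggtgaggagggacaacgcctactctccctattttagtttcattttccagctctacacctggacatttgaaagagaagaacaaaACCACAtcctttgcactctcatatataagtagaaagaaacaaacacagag
Gzmb: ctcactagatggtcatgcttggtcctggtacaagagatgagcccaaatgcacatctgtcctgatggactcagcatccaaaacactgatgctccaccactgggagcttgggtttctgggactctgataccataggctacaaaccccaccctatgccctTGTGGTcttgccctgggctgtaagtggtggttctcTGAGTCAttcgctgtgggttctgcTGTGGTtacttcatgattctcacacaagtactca
Gzmk: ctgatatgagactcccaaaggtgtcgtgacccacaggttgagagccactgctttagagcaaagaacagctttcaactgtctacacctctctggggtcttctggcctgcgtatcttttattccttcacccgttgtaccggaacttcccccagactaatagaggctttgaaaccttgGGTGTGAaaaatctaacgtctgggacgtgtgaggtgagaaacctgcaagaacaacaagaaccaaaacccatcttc
Prf1: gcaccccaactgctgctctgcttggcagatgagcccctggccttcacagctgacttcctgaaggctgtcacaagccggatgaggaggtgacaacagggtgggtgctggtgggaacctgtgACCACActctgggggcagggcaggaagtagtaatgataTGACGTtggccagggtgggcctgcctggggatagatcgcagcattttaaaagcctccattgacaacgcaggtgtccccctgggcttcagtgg
Nkg7: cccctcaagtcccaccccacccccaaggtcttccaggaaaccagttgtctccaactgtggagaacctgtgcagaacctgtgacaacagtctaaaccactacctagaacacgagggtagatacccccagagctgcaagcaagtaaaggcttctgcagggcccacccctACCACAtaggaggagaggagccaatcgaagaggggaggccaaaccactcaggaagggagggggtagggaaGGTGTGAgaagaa
Ctla2a: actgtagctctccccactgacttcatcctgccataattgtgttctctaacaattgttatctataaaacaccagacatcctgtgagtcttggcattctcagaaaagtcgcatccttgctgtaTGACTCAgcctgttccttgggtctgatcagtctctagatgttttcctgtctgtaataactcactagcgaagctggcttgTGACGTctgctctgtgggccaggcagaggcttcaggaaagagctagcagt
Ctla2b: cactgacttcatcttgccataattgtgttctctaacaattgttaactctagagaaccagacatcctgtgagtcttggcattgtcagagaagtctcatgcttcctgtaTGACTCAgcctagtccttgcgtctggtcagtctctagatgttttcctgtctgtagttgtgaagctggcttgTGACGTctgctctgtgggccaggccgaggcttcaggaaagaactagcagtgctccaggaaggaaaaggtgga

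The windows were chr13:113100982-113101231 on the minus strand for Gzma, chr14:56262335-56262584 on the minus strand for Gzmb and chr13:113180966-113181215 on the minus strand for Gzmk. That of Prf1 was chr10:61297586-61297835 and that of Nkg7 chr7:43436888-43437137, both on the plus strand. Ctla2a, with 2 starts of which the outermost was used, had chr13:60936626-60936875 on the minus strand, and Ctla2b had chr13:60897448-60897697 on the minus strand. RefSeq promoters were found for 9 of the 10 members, Serpinb1a being the one without. Of the members, 7 lie on chromosome 13. Gzma and Gzmk are separated there by 1 non-coding gene, Ctla2a and Ctla2b by 1 coding gene (Tpbpb), and Serpinb6b and Serpinb9 lie next to each other.

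The motifs were searched on both strands as letters alone. TGTGGT, the letters bound by RUNX factors, stood in 4 of the 9 windows and in 14.0% of the 32851 promoters of 27025 genes in the table. In Gzma it lay 50 to 45 bases before the start, in Nkg7 83 to 78 bases before it, in Prf1 130 to 125 bases before it, and in Gzmb at 93 to 88 and at 34 to 29 bases. GGTGTGA, the letters bound by T-box factors, stood at 75 to 69 bases in Gzmk and at 13 to 7 bases in Nkg7, and in 3.33% of all promoters. TGANTCA, the letters bound by AP-1, stood in 6.75% of all promoters and at 58 to 52 bases in Gzmb, 129 to 123 bases in Ctla2a and 143 to 137 bases in Ctla2b. TGACGT, the core of the cyclic AMP response element, stood in 6.47% of all promoters and at 50 to 45 bases in Ctla2a, 72 to 67 bases in Ctla2b and 92 to 87 bases in Prf1, so that RUNX and cyclic AMP letters stood in windows of members that were higher and of one that was lower in CD49b+ cells. No motif match overlapped another, and the windows of Serpinb9 and Serpinb6b held none of these letters. Aligned with each other, the windows of Ctla2a and Ctla2b were identical in 208 of 272 columns (76.5%), whereas the other 35 pairs of members reached 38.8% to 50.7%. Such matches describe letters and not binding.

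Among the granzymes, Gzma and Gzmb were high in CD49b+ cells, intermediate in CD25+ cells and under the array median in CD4+ cells, while Gzmk was under the array median everywhere. Gzmb encodes granzyme B, which cleaves after aspartate and can start apoptosis. Its log2 values were 9.41, 10.01 and 9.58 on the CD49b+ arrays and 6.31, 6.73 and 6.85 on the CD25+ arrays, against 4.22 and 4.68 in CD4+ cells of injected mice and 4.53 and 4.49 in those of naive mice. The CD49b+ arrays all lay above the CD25+ arrays and these above all 4 CD4+ arrays, which overlapped with each other. Against CD4+ cells of injected mice Gzmb was higher by 5.22 ± 0.21 (SE) on the log2 scale in CD49b+ cells (limma, adjusted p = 1.73e-07) and by 2.18 ± 0.21 in CD25+ cells (adjusted p = 4.79e-05). It was higher by 3.04 ± 0.19 in CD49b+ than in CD25+ cells, or 8.21-fold (adjusted p = 3.21e-06). In pooled cells such as these, fewer cells of a type and less RNA per cell cannot be told apart.

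Gzma encodes granzyme A, a protease that cleaves after basic residues. It read 7.70, 8.56 and 8.38 on the CD49b+ arrays and 5.26, 5.92 and 5.99 on the CD25+ arrays, against 4.24 and 4.25 in CD4+ cells of injected mice and 4.10 and 4.08 in those of naive mice. No array of one group reached into another, and CD49b+ array 1 was the lowest of its group. The difference from CD4+ cells of injected mice was 3.97 ± 0.26 in CD49b+ cells (limma, adjusted p = 2.73e-06) and 1.48 ± 0.26 in CD25+ cells (adjusted p = 0.00179). Between the subsets it was 2.49 ± 0.23 (5.63-fold, adjusted p = 4.31e-05). Since Gzma and Gzmb were under the array median on all 4 CD4+ arrays, the size of their differences from CD4+ cells depends on the background correction of the deposited values and is given as no fold. Only the arrays of the subsets brought both genes past the filter for dim genes.

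Gzmk, which encodes a further protease that cleaves after basic residues, read 4.16, 4.43 and 3.98 on the CD49b+ arrays and 4.10, 4.18 and 4.15 on the CD25+ arrays, against 4.56 and 4.64 in CD4+ cells of injected mice and 4.68 and 4.72 in those of naive mice. It was thus under the array median on all 10 arrays and was not tested among the 11037 genes. With no filter on dim genes its differences from CD4+ cells of injected mice were −0.41 in CD49b+ cells (limma, adjusted p = 0.0122) and −0.46 in CD25+ cells (adjusted p = 0.00911), beside array medians that were also lower in both subsets. Of the other 7 granzyme genes on the array, Gzmm alone passed the filter, and it was lower by 0.37 ± 0.09 in CD49b+ cells (adjusted p = 0.00543) and by 0.47 ± 0.09 in CD25+ cells (adjusted p = 0.00249) than in CD4+ cells of injected mice. Gzmc, which did not pass it, read 4.34 to 4.59 on the CD49b+ arrays and 3.67 to 3.89 on the CD25+ arrays, against 3.68 to 3.75 in CD4+ cells of injected mice.

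**Figure D1:**
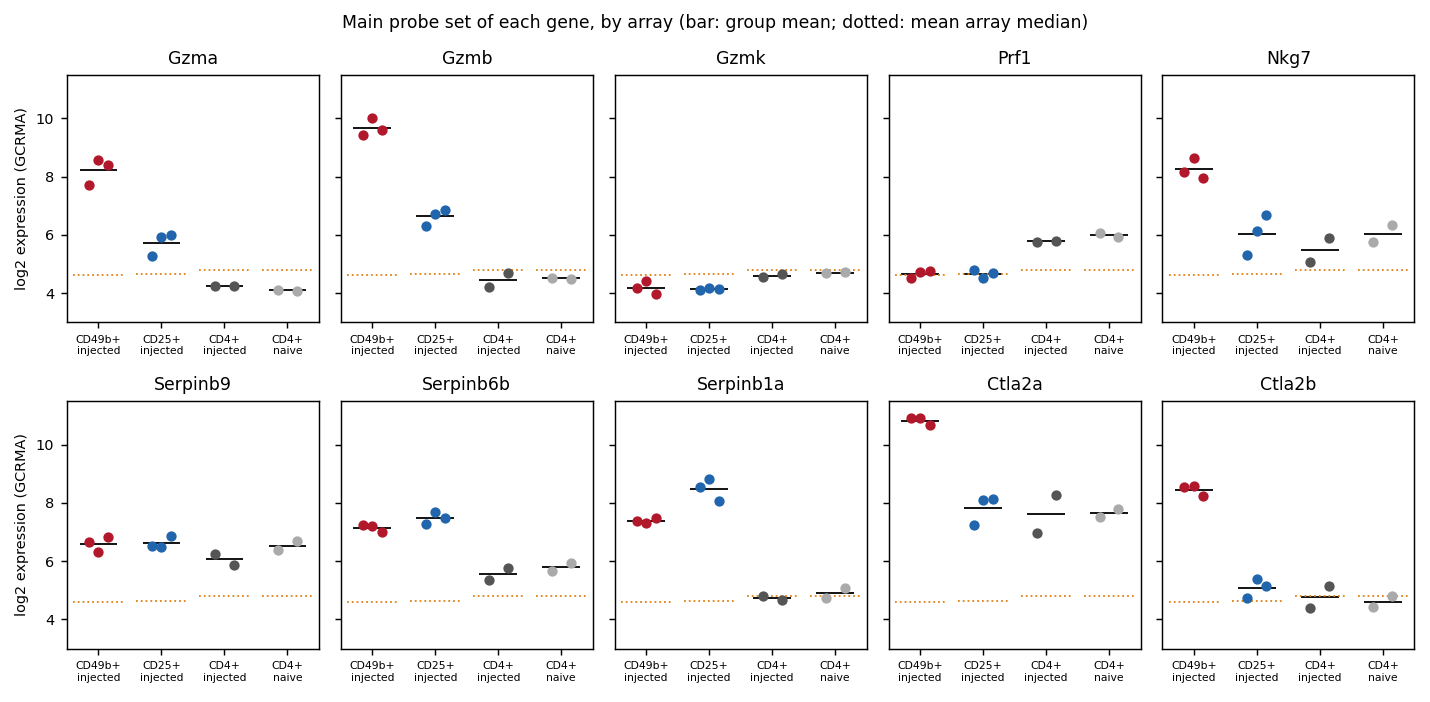
Log2 expression (deposited GCRMA values, vertical axis) of the main probe set of each of the 10 genes in CD49b+ and CD25+ cells (3 arrays each) and in CD4+ cells of injected and of naive mice (2 arrays each). Points are arrays, bars are group means and dotted lines the mean of the array medians of a group. Gzmb reaches 10.01 on a CD49b+ array and no more than 4.68 on a CD4+ array, Serpinb1a is highest in CD25+ cells, and Gzmk stays under the dotted lines.

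The pore protein and the granule membrane protein went apart. Prf1 encodes perforin. Its brighter probe set read 4.52, 4.74 and 4.75 on the CD49b+ arrays and 4.79, 4.51 and 4.69 on the CD25+ arrays, against 5.76 and 5.79 in CD4+ cells of injected mice and 6.05 and 5.93 in those of naive mice. All 6 subset arrays lay below all 4 CD4+ arrays, and the subsets overlapped with each other near the array median. Prf1 was lower by 1.10 ± 0.11 in CD49b+ cells, which is 2.15-fold (limma, adjusted p = 3.07e-05), and by 1.11 ± 0.11 in CD25+ cells (adjusted p = 5.15e-05). The subsets differed by 0.00 ± 0.10, with a 95% interval of −0.21 to 0.22.

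The dimmer Prf1 probe set did not show this. It read 4.49, 4.58 and 4.69 on the CD49b+ arrays and 4.52, 4.77 and 4.63 on the CD25+ arrays, against 4.75 and 4.69 in CD4+ cells of injected mice. Its differences from CD4+ cells were −0.13 in CD49b+ cells (limma over all probe sets, adjusted p = 0.277) and −0.08 in CD25+ cells (adjusted p = 0.55). The mean of both probe sets gave −0.62 and −0.59, both still called. Which probe set reads perforin transcripts better was not tested, and the lower value of Prf1 rests on 1 of 2 probe sets.

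Nkg7 encodes a membrane protein of cytotoxic granules that takes part in their release. It read 8.17, 8.63 and 7.96 on the CD49b+ arrays and 5.30, 6.12 and 6.69 on the CD25+ arrays, against 5.05 and 5.89 in CD4+ cells of injected mice and 5.75 and 6.32 in those of naive mice. Only the CD49b+ arrays stood apart, and the other 3 groups overlapped. Nkg7 was higher in CD49b+ than in CD4+ cells of injected mice by 2.78 ± 0.39, or 6.87-fold (limma, adjusted p = 0.0003), and higher than in CD25+ cells by 2.22 ± 0.35, or 4.65-fold (adjusted p = 0.00111). In CD25+ against CD4+ cells the difference of 0.56 ± 0.39 had a 95% interval of −0.31 to 1.44 and an adjusted p of 0.284.

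Of the serpins, Serpinb1a and Serpinb6b were higher in both subsets, and the calls of Serpinb9 depended on single arrays and on the comparator. Serpinb1a, an inhibitor of neutrophil elastase and cathepsin G, read 7.36, 7.32 and 7.49 on the CD49b+ arrays and 8.55, 8.83 and 8.07 on the CD25+ arrays, against 4.80 and 4.68 in CD4+ cells of injected mice and 4.74 and 5.08 in those of naive mice. The CD25+ arrays were the highest, the CD49b+ arrays came next, and neither overlapped with another group. Serpinb1a was higher than in CD4+ cells of injected mice by 2.65 ± 0.19 in CD49b+ cells (limma, adjusted p = 5.16e-06) and by 3.75 ± 0.19 in CD25+ cells (adjusted p = 1.01e-06). It was lower in CD49b+ than in CD25+ cells by 1.10 ± 0.17, or 2.14-fold (adjusted p = 0.00108). Like Gzma and Gzmb, Serpinb1a passed the filter through the subset arrays, having been under the array median on both CD4+ arrays of injected mice, and no fold against these is given.

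The second and dimmer Serpinb1a probe set read 4.35, 4.33 and 4.42 on the CD49b+ arrays and 5.47, 5.76 and 4.64 on the CD25+ arrays, against 3.38 and 3.39 in CD4+ cells of injected mice. The CD25+ arrays were again the highest and the CD49b+ arrays next, but in CD4+ cells of injected mice it lay at the level of the nonspecific probe sets, so that it gives no size of the difference from them. It was lower in CD49b+ than in CD25+ cells by 0.92 (limma over all probe sets, adjusted p = 0.017). With the mean of both probe sets the differences of the gene from CD4+ cells came to 1.82 and 2.83.

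Serpinb6b encodes an inhibitor of mouse granzyme A. Values of 7.24, 7.19 and 6.99 on the CD49b+ arrays and 7.29, 7.70 and 7.48 on the CD25+ arrays stood against 5.36 and 5.75 in CD4+ cells of injected mice and 5.67 and 5.94 in those of naive mice. Both subsets lay clear of the CD4+ arrays, and the CD25+ arrays lay just above the CD49b+ arrays without overlap. Serpinb6b was higher by 1.58 ± 0.16 in CD49b+ cells (3.0-fold, limma, adjusted p = 3.55e-05) and by 1.93 ± 0.16 in CD25+ cells (3.81-fold, adjusted p = 1.80e-05). Between the subsets it differed by −0.35 ± 0.14, which was not called (adjusted p = 0.0927), whereas the fit with the replicate number as a block called it (adjusted p = 0.0266).

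Serpinb9, the inhibitor of granzyme B, had the smallest differences of the 3 serpins from CD4+ cells of injected mice. Its brighter probe set read 6.66, 6.31 and 6.84 on the CD49b+ arrays and 6.52, 6.48 and 6.86 on the CD25+ arrays, against 6.23 and 5.88 in CD4+ cells of injected mice and 6.39 and 6.68 in those of naive mice. Both subsets lay above the CD4+ arrays of injected mice and overlapped with those of naive mice. The differences from CD4+ cells of injected mice were 0.55 ± 0.18 in CD49b+ cells (1.46-fold, limma, adjusted p = 0.0304) and 0.57 ± 0.18 in CD25+ cells (1.48-fold, adjusted p = 0.0351). Against CD4+ cells of naive mice they were 0.07 (adjusted p = 0.777) and 0.09 (adjusted p = 0.744). Both calls were also lost without array 2 of CD4+ cells of injected mice, at 0.37 (adjusted p = 0.215) and 0.39 (adjusted p = 0.232). The call in CD49b+ cells was lost without CD49b+ array 1 (0.52, adjusted p = 0.072) or array 3 (0.43, adjusted p = 0.0904), and that in CD25+ cells without CD25+ array 3 (0.45, adjusted p = 0.0967). The subsets differed by −0.02 ± 0.16, with a 95% interval of −0.39 to 0.35. The dimmer Serpinb9 probe set was too dim to be tested, at 4.21 to 4.63 over all 10 arrays.

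**Figure D2:**
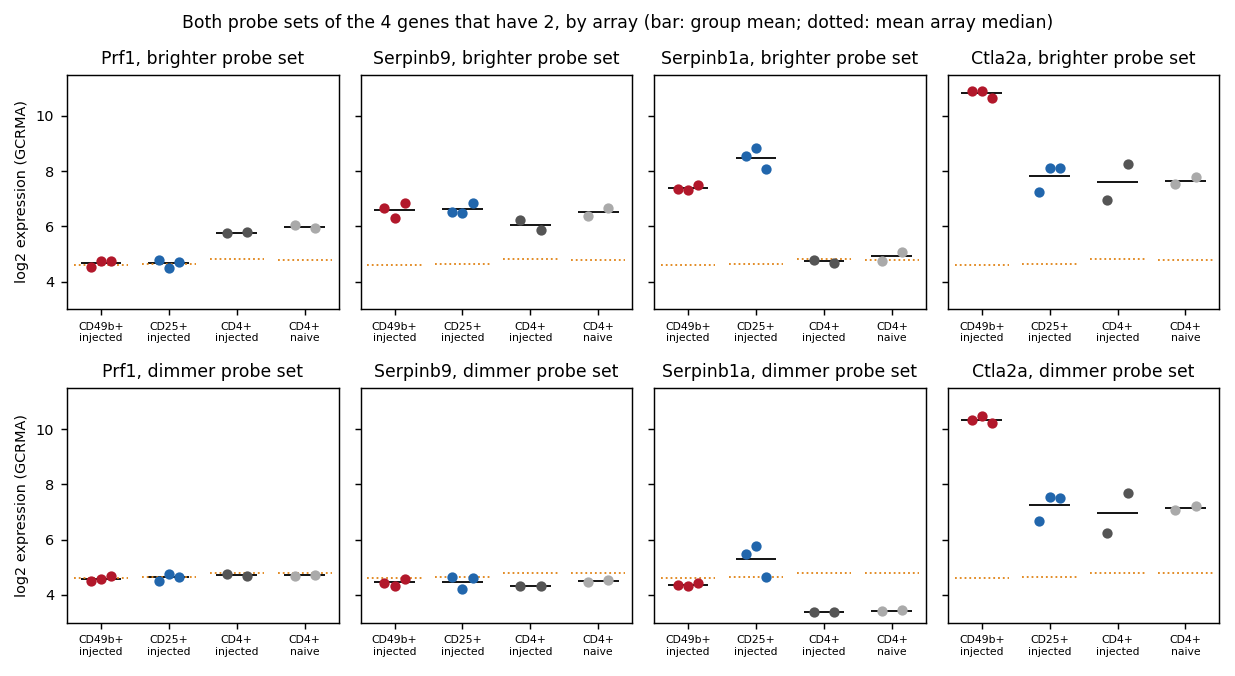
Log2 expression (deposited GCRMA values, vertical axis) of the brighter (upper row) and dimmer (lower row) probe set of Prf1, Serpinb9, Serpinb1a and Ctla2a in the 4 groups. Points are arrays, bars group means and dotted lines the mean array median of a group. Both probe sets of Ctla2a and of Serpinb1a show the same order of the subsets, while the dimmer set of Prf1 is flat, with 4.49 to 4.77 on all 10 arrays.

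The cathepsin inhibitors separated CD49b+ cells from all others. Ctla2a and Ctla2b encode small proteins that resemble the propeptide of cathepsin L-like cysteine proteases, and the Ctla2a protein inhibits cathepsin L. Ctla2a read 10.90, 10.90 and 10.66 on the CD49b+ arrays and 7.26, 8.11 and 8.12 on the CD25+ arrays, against 6.96 and 8.28 in CD4+ cells of injected mice and 7.52 and 7.80 in those of naive mice. The CD49b+ arrays lay above the rest, which overlapped, with CD25+ array 1 and array 1 of CD4+ cells of injected mice the lowest. Ctla2a was higher in CD49b+ than in CD4+ cells of injected mice by 3.20 ± 0.36, or 9.19-fold (limma, adjusted p = 7.43e-05), and higher than in CD25+ cells by 2.99 ± 0.32, or 7.94-fold (adjusted p = 0.000102). Since the 2 CD4+ arrays of injected mice stood apart, the first of these came to 2.54 without array 1 of that group and to 3.86 without array 2, both called. In CD25+ against CD4+ cells it was 0.21 ± 0.36, with a 95% interval of −0.59 to 1.01 and an adjusted p of 0.674.

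Ctla2b read 8.54, 8.56 and 8.25 on the CD49b+ arrays and 4.73, 5.38 and 5.13 on the CD25+ arrays, against 4.38 and 5.16 in CD4+ cells of injected mice and 4.42 and 4.80 in those of naive mice. Here too only the CD49b+ arrays stood clear. Its differences were 3.68 ± 0.25 between CD49b+ and CD4+ cells of injected mice (limma, adjusted p = 3.00e-06) and 3.37 ± 0.22 between CD49b+ and CD25+ cells (10.3-fold, adjusted p = 4.52e-06). Ctla2b was above the array median on only 1 of the 2 CD4+ arrays of injected mice. The size of the first difference thus depends on the background correction, and no fold is given for it. In CD25+ against CD4+ cells it was 0.31 ± 0.25, with a 95% interval of −0.24 to 0.86 and an adjusted p of 0.353. The second probe set of Ctla2a gave 3.38, 0.29 and 3.09 in the same 3 comparisons. The upstream windows of Ctla2a and Ctla2b were 76.5% identical, but their transcripts were not compared. Whether a probe set reads the transcripts of both genes was not tested, so that the share of each gene in these values is uncertain.

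In CD49b+ against CD4+ cells of injected mice, 8 of the 10 members were higher and 1 (Prf1) lower, with Gzmk not tested. Over all 11037 genes tested, 29.9% were higher and 23.5% lower, 53.4% in all. Median centring, which left the members' calls as they were, made these shares 44.3% and 12.3%. The median log2 difference of the 10 members was 2.72, beside 0.03 over all genes tested. Gzma, Gzmb and Serpinb1a passed the filter only through the subset arrays and so had to differ, and the count is a description of the members and not support for a set. In CD25+ against CD4+ cells of injected mice, 5 members were higher (Gzma, Gzmb and the 3 serpins) and Prf1 was lower, beside 20.8% and 17.8% of all genes (38.6% in all, with 35.8% and 9.76% under median centring), and the members' median was 0.56, beside 0.02. These 2 comparisons share the CD4+ arrays of injected mice, so that their values are set side by side only.

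In CD49b+ against CD25+ cells, 5 members were higher (Gzma, Gzmb, Nkg7, Ctla2a and Ctla2b) and Serpinb1a was lower, beside 17.5% and 12.4% of all genes (29.9% in all), with a median over the members of 1.13 beside 0.03. The 3 tested members that were not called were Prf1, Serpinb9 and Serpinb6b. By rank among the 11037 differences from the highest, Ctla2b was 8, Gzmb 11, Ctla2a 12, Gzma 22 and Nkg7 34.

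In CD4+ cells of injected against naive mice, limma called 0 of the 9 members tested, beside 0.0272% of genes higher and 1.36% lower (1.39% in all). That share rests on few arrays, since the 153 genes called over all became 93 without naive array 1, 15 without naive array 2 and 30 without array 1 of injected mice. At an unadjusted p under 0.05, 1 member (Serpinb9) and 270 higher and 1095 lower genes were found. The difference of Serpinb9 was −0.48 ± 0.20 (95% interval −0.93 to −0.03, adjusted p = 0.372), and its 2 arrays of injected mice lay below both of naive mice. Prf1 differed by −0.22 ± 0.12 (adjusted p = 0.513) and Nkg7 by −0.57 ± 0.43 (adjusted p = 0.684). The interval of Nkg7 ran from −1.52 to 0.39 and that of Ctla2a, at −0.04 ± 0.39, from −0.92 to 0.84, so that for these 2 genes differences within these bounds cannot be told from the spread between arrays.

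**Figure D3:**
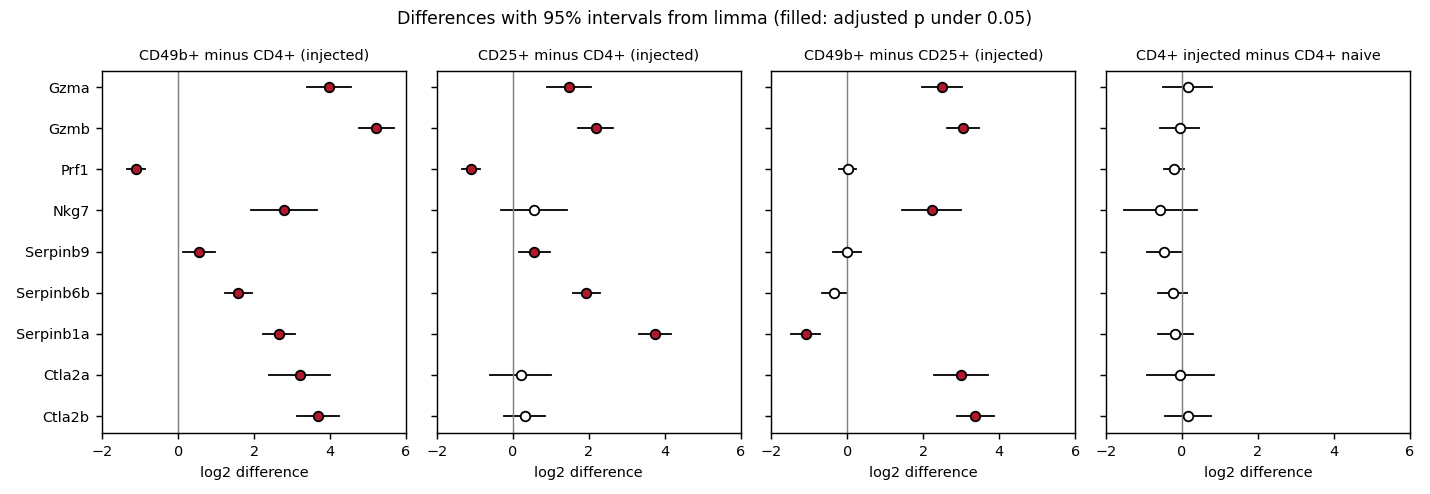
Log2 difference (horizontal axis) of each of the 9 members tested in 4 comparisons, with 95% intervals from limma. Filled points have an adjusted p under 0.05. Gzma, Gzmb, Nkg7, Ctla2a and Ctla2b lie right of 0 in CD49b+ against CD25+ cells and Serpinb1a left of it, and no point is filled for CD4+ cells of injected against naive mice.

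The members were set against each other by the root mean square difference of their log2 values over the 10 arrays, each gene centred on its own mean. This is a description over arrays that share their groups. Ctla2a and Ctla2b were the nearest pair at 0.298, followed by Gzmk and Prf1 at 0.386, Nkg7 and Ctla2a at 0.432 and Gzma and Gzmb at 0.507. Gzmb and Prf1 were the farthest apart, at 2.68. The neighbouring genes Gzma and Gzmk thus fell into different patterns, and the neighbouring Serpinb6b and Serpinb9 differed in the size of their change.

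By the same measure over all genes tested outside the members, those nearest to Gzmb were AA467197 (0.288), 1500009L16Rik (0.327) and Cysltr1 (0.343), a leukotriene receptor. Nearest to Gzma were Mns1 (0.214), Tktl1 (0.278) and Rps6ka5 (0.347). Nkg7 was most like Ifitm2 (0.326), Il4 (0.327), the cytokine interleukin 4, and Dnajc15 (0.344). Serpinb1a was most like Coro2a (0.322), Foxp3 (0.427), the master regulator of regulatory T cells, and Il2rb (0.443), the interleukin 2 receptor beta chain. Serpinb6b was nearest to Gpr15 (0.152), Hopx (0.152) and Fabp5 (0.184). Epas1, a hypoxia-inducible transcription factor, was nearest to both Ctla2a (0.250) and Ctla2b (0.305), with Emp1 (0.329) and Lgals7 (0.387) next for Ctla2a and Tmem273 (0.328) and Tktl1 (0.387) for Ctla2b. Nearest to Prf1 were Clec7a (0.134), Cts8 (0.140) and Ctnnd2 (0.146). Cinp, Dcaf7 and Asb3 were nearest to Serpinb9 and Intu, Cadm4 and Elovl3 to Gzmk, whose own values moved little.

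Other genes that fill and process the granule were counted from a list of 13, of which 11 were tested. In CD49b+ against CD4+ cells of injected mice, 7 were higher and 2 lower, with a median of 0.56, beside 29.9% and 23.5% of all genes. In CD25+ against CD4+ cells 4 were higher and 2 lower, with a median of 0.21, beside 20.8% and 17.8% of all genes, and the share that was lower was thus near that of all genes. The same shares apply to the counts of each list that follows. Ctsw, a cathepsin of cytotoxic lymphocytes, was higher by 1.79 ± 0.25 in CD49b+ cells (limma, adjusted p = 0.000303) and by 0.81 ± 0.25 in CD25+ cells (adjusted p = 0.0286). Ctsc, the protease that activates granzymes by removing a dipeptide, was higher by 1.11 ± 0.15 in CD49b+ cells (adjusted p = 0.000217), while in CD25+ cells its difference was 0.38 ± 0.15 (adjusted p = 0.0687). Ctsl, which encodes cathepsin L, was lower by 1.55 ± 0.22 in CD49b+ cells (adjusted p = 0.000358), at 4.78, 5.22 and 4.86 on the CD49b+ arrays, against 6.29 and 6.71 in CD4+ cells of injected mice. On the CD25+ arrays Ctsl read 6.55, 7.10 and 6.30, and it was lower in CD49b+ than in CD25+ cells by 1.70 ± 0.20 (adjusted p = 0.000187). Ctsh was lower than in CD4+ cells of injected mice by 1.56 ± 0.20 in CD49b+ and by 1.10 ± 0.20 in CD25+ cells. Within CD4+ cells Ctsh also read lower in injected mice (5.71 and 5.95) than in naive mice (7.12 and 7.54). On the CD49b+ arrays it was under the array median, at 4.14 to 4.45. Ctsb was higher than in CD4+ cells of injected mice by 1.11 ± 0.11 in CD49b+ and by 0.79 ± 0.11 in CD25+ cells.

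Genes of granule maturation and release were counted from a list of 18, of which 16 were tested. In CD49b+ cells 12 were higher than in CD4+ cells of injected mice and the other 4 were not called, with a median of 0.63. In CD25+ cells 7 were higher and 1 (Lyst) lower, with a median of 0.23. Sytl2, a partner of Rab27a at the plasma membrane, read 9.61, 9.44 and 9.44 on the CD49b+ arrays and 7.70, 7.90 and 7.86 on the CD25+ arrays, against 6.65 and 6.88 in CD4+ cells of injected mice. It was higher by 2.73 ± 0.12 in CD49b+ cells (limma, adjusted p = 2.96e-07) and by 1.06 ± 0.12 in CD25+ cells (adjusted p = 0.000146). Sytl3 was higher by 1.78 ± 0.10 in CD49b+ cells (adjusted p = 9.28e-07), while its difference in CD25+ cells was 0.10 ± 0.10 (adjusted p = 0.441). Sytl1 was higher by 2.04 ± 0.13 in CD49b+ and by 1.19 ± 0.13 in CD25+ cells. Stx11, a syntaxin needed for granule fusion, was higher by 1.30 ± 0.11 in CD49b+ and by 2.34 ± 0.11 in CD25+ cells, and lower in CD49b+ than in CD25+ cells by 1.04 ± 0.10 (adjusted p = 4.71e-05). Stx11 was also lower by 0.90 ± 0.12 in CD4+ cells of injected mice when set against naive mice (adjusted p = 0.00829).

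Of 20 further intracellular serpins and cystatins, 13 were on the array and 6 were tested. In CD49b+ against CD4+ cells of injected mice 4 were higher and 2 lower, with a median of 0.90, and in CD25+ cells 3 were higher and 2 lower, with a median of 0.51. Cst7, which encodes cystatin F, an inhibitor of granule cathepsins, was higher by 1.39 ± 0.30 in CD49b+ cells (limma, adjusted p = 0.00363) and by 2.59 ± 0.30 in CD25+ cells (adjusted p = 0.000152). Like Serpinb1a it was lower in CD49b+ than in CD25+ cells, by 1.2 ± 0.27 (adjusted p = 0.00779). The CD4+ arrays of injected mice stood apart for Cst7, at 6.17 and 7.32. Those of naive mice read 7.48 and 7.91, beside 7.91 to 8.47 on the CD49b+ and 9.19 to 9.54 on the CD25+ arrays. Serpinb6a, a paralogue of Serpinb6b, was higher than in CD4+ cells of injected mice by 1.28 ± 0.18 in CD49b+ and by 1.04 ± 0.18 in CD25+ cells.

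Transcription factors that regulate the cytotoxic programme were counted from a list of 13, of which 11 were tested. In CD49b+ cells 8 were higher and 3 lower than in CD4+ cells of injected mice, and in CD25+ cells 6 were higher and 2 lower. In CD49b+ against CD25+ cells 4 were higher, 1 was lower and 6 were not called, with a median of −0.02. These counts stand beside 17.5% of all genes higher and 12.4% lower. Tbx21, which encodes the T-box factor T-bet, read 8.67, 7.91 and 8.40 on the CD49b+ arrays and 5.95, 5.83 and 7.43 on the CD25+ arrays, against 4.50 and 4.53 in CD4+ cells of injected mice. It was higher by 3.81 ± 0.41 in CD49b+ cells (limma, adjusted p = 5.94e-05) and by 1.89 ± 0.41 in CD25+ cells (adjusted p = 0.00551). Tbx21 was under the array median on both CD4+ arrays of injected mice. Like Serpinb1a, it passed the filter only through the subset arrays and so had to differ. The size of its differences from CD4+ cells thus depends on the background correction. Runx3 was higher in CD49b+ than in CD25+ cells by 1.32 ± 0.11 (adjusted p = 2.63e-05), at 9.31 to 9.56 against 7.96 to 8.40. Bach2, a repressor of effector genes, was lower in CD49b+ cells by 3.09 ± 0.28 (adjusted p = 2.01e-05), while its difference in CD25+ cells was −0.47 ± 0.28 (adjusted p = 0.212). Eomes, a second T-box factor, was lower by 0.91 ± 0.10 in CD49b+ and by 0.71 ± 0.10 in CD25+ cells. Prdm1 was higher by 1.82 ± 0.08 in CD49b+ and by 1.85 ± 0.08 in CD25+ cells. Gfi1 was likewise higher in both, by 2.39 ± 0.11 in CD49b+ and by 1.90 ± 0.11 in CD25+ cells.

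**Figure D4:**
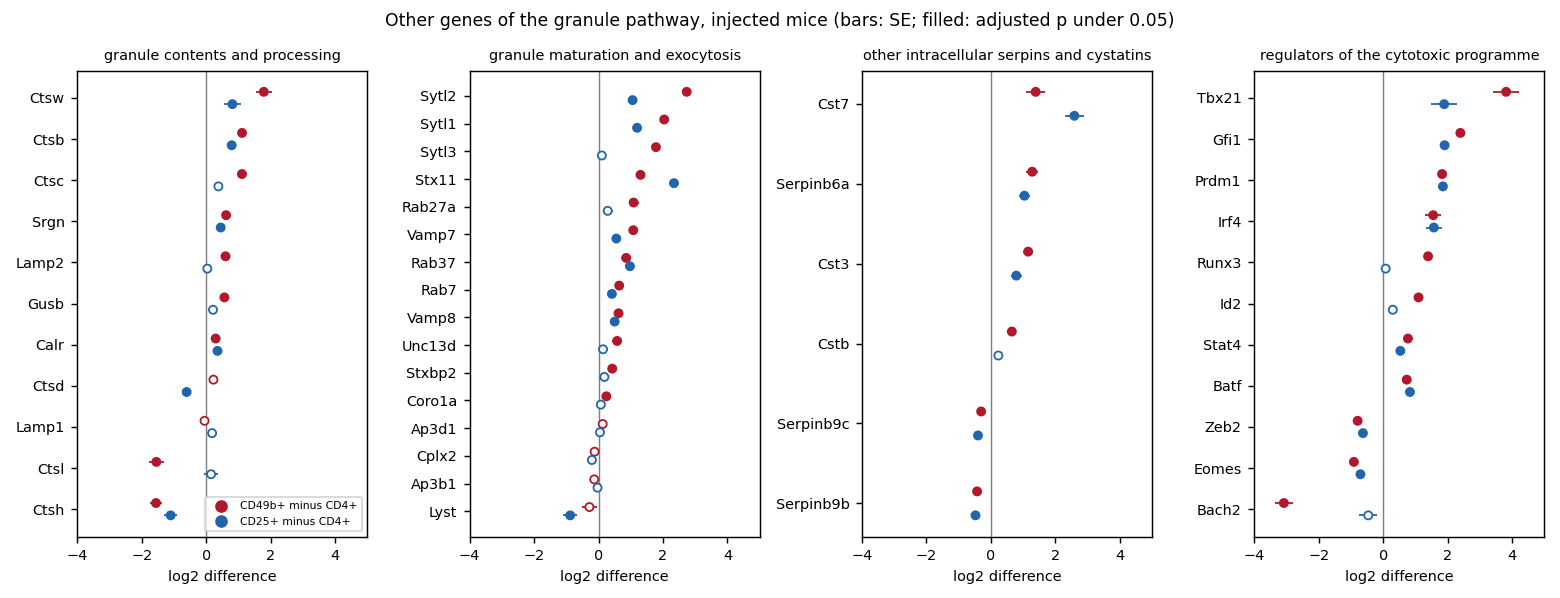
Log2 differences (horizontal axis) of CD49b+ (red) and CD25+ (blue) cells from CD4+ cells of injected mice for the tested genes of 4 lists of the granule pathway, with standard errors as bars. Filled points have an adjusted p under 0.05. Sytl2, Sytl3, Runx3 and Tbx21 lie farther right in CD49b+ cells, and Cst7 and Stx11 farther right in CD25+ cells.

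Markers of other cells that hold granules were read beside the members. Of 13 natural killer cell markers 9 were on the array, and 3 of the 5 tested were higher and 1 lower than in CD4+ cells of injected mice in CD49b+ cells, and likewise in CD25+ cells. Klrg1, Ncr1, an activating receptor, and Klrk1 (NKG2D) were the higher ones in CD49b+ cells and Klrg1, Ncr1 and Fcer1g in CD25+ cells. Ncr1 differed by 0.65 ± 0.22 (limma, adjusted p = 0.0301) in CD49b+ and by 0.73 ± 0.22 (adjusted p = 0.0254) in CD25+ cells, Klrk1 by 0.53 ± 0.12 (adjusted p = 0.00421) in CD49b+ cells and Fcer1g by 1.90 ± 0.28 (adjusted p = 0.000604) in CD25+ cells. Ncr1 was under the array median on every CD4+ array, at 4.43 to 4.51. It passed the filter only through the subset arrays and so had to differ, and the size of its differences depends on the background correction. The summed level of the 9 markers on the array, on the log2 scale, was 10.2 to 10.4 on the CD49b+ arrays and 9.36 to 9.85 on the CD25+ arrays, against 8.22 to 8.38 in CD4+ cells of injected mice and 9.0 to 9.27 in those of naive mice. Over the groups of injected mice the sum had the same order as Gzma and Gzmb. It was also higher in CD4+ cells of naive than of injected mice, while Gzma and Gzmb were under the array median in both. Klrg1, a receptor that T cells also carry, was the brightest member of the sum on both subsets. It read 9.95 to 10.07 on the CD49b+ arrays and 8.55 to 8.98 on the CD25+ arrays, against 4.79 and 5.01 in CD4+ cells of injected mice. Klrb1c, which encodes NK1.1, read 4.45 to 4.68 over all 10 arrays, and Klra8, Klra7 and Klrc1 were under the array median throughout. Tyrobp, the adaptor of natural killer receptors, was lower by 1.81 ± 0.28 in CD49b+ cells (limma, adjusted p = 0.000499). In CD25+ cells it was likewise lower, by 1.57 ± 0.28 (adjusted p = 0.00178). Within CD4+ cells Tyrobp read 6.75 and 7.07 in injected and 8.17 and 8.56 in naive mice, a difference that was not called. The 6 markers of natural killer T cells summed to 11.8 to 12.1 on the CD49b+ arrays and 11.3 to 11.8 on the CD25+ arrays, against 10.1 in CD4+ cells of injected mice and 10.6 to 10.8 in those of naive mice. Of the 5 tested, Cxcr6, Il2rb and Cd160 were higher in both subsets than in CD4+ cells of injected mice, by 4.58, 2.56 and 0.60 in CD49b+ cells, while in CD25+ cells the difference was 2.62 for Cxcr6 and 3.08 for Il2rb. Zbtb16, the transcription factor that defines these cells, was lower in CD49b+ cells by 0.72 ± 0.17 (adjusted p = 0.00626), and its difference in CD25+ cells was 0.20 ± 0.17 (adjusted p = 0.382).

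Of the markers of myeloid and dendritic cells, 3 of the 4 tested were, like Prf1, lower in both subsets than in CD4+ cells of injected mice. The list held 10, of which 8 were on the array. Itgax, Adgre1 and Cd209a were lower than in CD4+ cells of injected mice by 0.83, 0.71 and 0.99 in CD49b+ cells and by 1.17, 0.52 and 1.10 in CD25+ cells, and lower in CD4+ cells of injected mice by 1.12, 0.85 and 1.03 when set against naive mice. The 8 markers summed to 7.51 to 7.52 on the CD49b+ arrays and 7.35 to 7.46 on the CD25+ arrays, against 8.04 to 8.07 in CD4+ cells of injected mice and 8.64 to 8.93 in those of naive mice. Their part in the lower value of Prf1 was not tested. The CD8 genes Cd8a and Cd8b1 summed to 5.38 to 5.59 on the CD49b+ arrays and 5.39 to 5.49 on the CD25+ arrays, against 5.70 to 5.72 in CD4+ cells of injected mice. The part of other cells in the granule gene values was not tested.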

How the data were processed

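Gene expression in 10 samples of pooled mouse spleen CD4+ T cells was measured on Affymetrix mouse arrays. The deposited log2 expression values came from GCRMA, with Affymetrix Expression Console 1.2.1 also named per the submitters' processing notes. The sources used here do not tell whether the authors normalized all arrays in 1 run, and the number of arrays limits the precision.

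After 104 control probe sets were set aside, 28898 probe sets had 1 gene symbol in the platform annotation, 551 several and 15588 none here. A match of 28689 by gene number to the RefSeq table altered 0 symbols. For each of 17097 genes the probe set of highest mean was used. Genes above the 50th percentile of their array on at least 2 arrays (11037) were tested, and 6060 were set aside as dim. Of the members 9 passed, 6 of them also on the CD4+ arrays alone, and Gzmk did not.

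Samples were grouped by their titles. The 4 group means were fitted with lmFit and eBayes of limma 3.58.1 (R 4.3.3) on 6 residual degrees of freedom and set against each other in 4 comparisons, with two-sided p-values adjusted over all genes tested in each by the Benjamini-Hochberg method and called under 0.05. The fit was tested on simulated data. All 10 members were named, with some called genes of each pathway list, the sort markers, the brightest other markers and the 3 genes outside the members most like each member. The plan was to name up to 4 called genes of each pathway list and comparison by size, and it was not kept for every list. The members and lists were chosen with earlier results of these data known. Some further genes (Gzmc, Eomes, Fasl, Zbtb16, Itgax and others of the marker lists) were named after their values were seen.

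The replicate numbers come from the labels. Deviations from the group means correlated between CD49b+ and CD25+ arrays of the same number at 0.158, 0.366 and 0.641. The highest of these values came from the subset arrays that stood apart in the added poly-A transcripts. So few correlations do not settle whether the numbers pair these samples, and the labels do not tell. The main fit therefore had no block, and the replicate block was run as an alternative.

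Alternatives were no filter or the 70th percentile, quantile normalization, median centring, the mean of the probe sets or every probe set, another eBayes prior, array weights, the replicate block, a 2-fold threshold, other CD4+ comparators, only the arrays compared and the omission of each array. The crossed block and the omission of both subset arrays numbered 3 were added after seeing the data. Promoters were RefSeq sequences of GRCm38.p6.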

Additional observations from a re-analysis of the deposited data

How the results depend on the processing

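The array medians limit what low values can show, since Gzma, Gzmb, Gzmk and Serpinb1a lay under them in CD4+ cells of injected mice. Ctla2b was above the median on only 1 of the arrays of that group. A lone array left in a group was taken to vary as the other groups do.

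No direction of a called member turned under any alternative run, and each call of a member in the 3 comparisons with a subset held under every alternative in which the gene was tested, Serpinb9 excepted. Prf1 was not tested under the 70th percentile filter. In CD49b+ against CD4+ cells of injected mice 8 to 9 members were called with 1 array left out, in CD25+ against CD4+ cells 5 to 6, in CD49b+ against CD25+ cells 6 and in CD4+ cells of injected against naive mice 0. The Serpinb9 calls against CD4+ cells of injected mice were lost with the mean of the probe sets (0.33, adjusted p = 0.0736, in CD49b+ and 0.36, adjusted p = 0.0728, in CD25+ cells), with a 2-fold threshold, with both CD4+ groups as comparator (0.31, adjusted p = 0.183, and 0.33, adjusted p = 0.187), against naive mice alone, without both subset arrays numbered 3 (0.43, adjusted p = 0.0679, and 0.45, adjusted p = 0.0764) and without the single arrays named in the report. The cause was not tested. Values that were not called changed sign between settings, such as Nkg7 in CD25+ against CD4+ cells (−0.01 against naive mice to 0.98).

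With the replicate block, Serpinb6b in CD49b+ against CD25+ cells was called lower (−0.35, adjusted p = 0.0266), which made 7 members called, and no other member's call changed. Deviations of the CD4+ arrays of injected mice correlated with those of the same number at 0.088 and 0.522 for CD49b+ and at 0.245 and 0.531 for CD25+ arrays, with 2 pairs only, which does not settle whether the numbers pair these arrays, and they were not taken as a pairing. The block gave 9, 6 and 0 members called in the other 3 comparisons. A crossed replicate block in CD4+ cells of injected against naive mice, whose same-numbered deviations correlated at −0.209, called 1 member (Serpinb9, lower) and 526 genes, against 377 with the block by number and 153 without it.

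Counts over all genes depended on the setting. The counts named with a filter, a threshold, array weights or the arrays compared moved by over 1.5 times, as did those named with an array left out, and the other counts with 1 array left out did not. In CD49b+ against CD4+ cells 5892 genes became 9123 with no filter and 1066 with the 2-fold threshold, and 4318 to 5989 with 1 array left out. In CD25+ against CD4+ cells 4261 became 7583 with no filter, 2500 with the 70th percentile filter and 711 with the 2-fold threshold, and 2792 (without array 1 of CD4+ cells of injected mice) to 4174 with 1 array left out. In CD49b+ against CD25+ cells 3297 became 562 with the 2-fold threshold, and 2484 to 3193 with 1 array left out. In CD4+ cells of injected against naive mice 153 became 328 with array weights, 68 with the 2-fold threshold and 0 with only the arrays compared, and with 1 array left out 15 (naive array 2), 30 (injected array 1), 93 (naive array 1) and up to 154. Median centring raised the median difference of all genes from CD4+ cells of injected mice by 0.19 for CD49b+ cells, with 78.3% of calls then higher in place of 56.0%, and by 0.16 for CD25+ cells, with 78.6% in place of 53.9%.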

Other observations

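The death ligands act through receptors on the target cell and not through the granule. In CD49b+ against CD25+ cells 2 of the 5 (Lta and Ltb) were lower and 3 were not called, beside 12.4% of all genes lower. Of the 5 genes tested, 1 was higher and 2 were lower in CD49b+ than in CD4+ cells of injected mice, while 4 were higher in CD25+ than in CD4+ cells and 1 (Fasl) was not called, beside 29.9% of all genes higher and 23.5% lower in CD49b+ and 20.8% higher in CD25+ cells. Tnfsf10, which encodes the ligand TRAIL, was higher in both, by 1.14 ± 0.12 (limma, adjusted p = 5.73e-05) in CD49b+ and by 1.17 ± 0.12 (adjusted p = 7.73e-05) in CD25+ cells. Lta, which encodes lymphotoxin alpha, was lower in CD49b+ cells by 0.83 ± 0.18 (adjusted p = 0.00332) and higher in CD25+ cells by 1.89 ± 0.18 (adjusted p = 4.38e-05), and lower in CD49b+ than in CD25+ cells by 2.72 ± 0.16 (adjusted p = 2.30e-06). Tnf was higher in CD25+ cells by 1.27 ± 0.35 (adjusted p = 0.0179), and its difference in CD49b+ cells was 0.54 ± 0.35 (adjusted p = 0.223). Fasl, the Fas ligand, was not called in either subset, with differences of −0.70 ± 0.28 (adjusted p = 0.059) and −0.57 ± 0.28 (adjusted p = 0.138).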
